A study of Mus musculus with 6 samples.

Results

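Microglia and infiltrating macrophages of the same brains, from a study of experimental glioma, were compared within each hashed sample. Both are macrophages, but they come from different sources. Microglia enter the brain during embryonic development and maintain themselves there, with an identity that depends on TGF-beta, CSF1R signalling and the transcription factor Sall1. Macrophages of monocyte origin are recruited from the blood into tumors, where they take up debris and lipids, present antigen and secrete growth factors and proteases. Both carry the integrin CD11b, so a sort on that protein collects them together and they must be told apart by other genes.

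A cell was taken as microglia when P2ry12, Tmem119, Siglech and Gpr34 together gave at least 3 UMIs (counts of distinct molecules) and Ms4a7, Ly6c2, Plac8 and Ccr2 at most 1. A cell was taken as a macrophage when Ms4a7 and Gpnmb together gave at least 3 UMIs, the 4 microglial genes at most 1, and the lymphocyte and dendritic cell genes Nkg7, Flt3 and Ccr7 at most 1. Of 36755 barcodes in all, 17085 had at least 500 UMIs, under 10% mitochondrial UMIs and at least 80% of their hashtag UMIs from 1 of the hashtags 3 to 6. The comparison used 8067 cells, 4514 microglia and 3553 macrophages, from 11 of the 12 hashed samples under these hashtags. The remaining sample, hashtag 3 of pool 3, held 11 macrophages, under the minimum of 20 cells, and 8749 cells under these hashtags met neither definition. The 12 genes of the definitions chose the cells and are described without a test. The other genes were read in the same cells, so those that accompany the 12 in a cell were bound to differ, and the tests measure how large and how even the differences were over samples.

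The study used CITE-seq, which reads RNA and antibody tags of surface proteins in single cells, on CD11b+ brain cells of C57BL/6 mice aged 12 weeks, in 3 pools of 6 hashed samples. Each pool joined a female and a male mouse sample without tumor, at day 14 and at day 21 after tumor implantation. Controls gave whole brains and tumor-bearing mice the hemisphere with the tumor, after perfusion to clear the blood. The labels name neither the tumor line nor which hashtag marks which group, so the 11 samples are named by pool and hashtag, may mix groups, and were not compared by sex, tumor or day. The labels do not say that hashed samples come from separate animals, so p-values measure the spread between these samples, which may be partly technical.

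The number of cells per sample ranged from 35 to 963 microglia and from 57 to 609 macrophages. Macrophages carried more UMIs: the median UMIs per cell in a sample were 4289, 5641 and 7268 in microglia and 6816, 10292 and 14151 in macrophages. Where 3 values stand together, they are the lowest, the median and the highest of the 11 samples. The ratio of the medians within a sample ran from 1.44 to 1.95. Both definitions count UMIs, so the total per cell is tied to them. Under hashtags 3 to 6, cells with exactly 3 UMIs of their defining genes had a median total of 3493 in microglia and 7499 in macrophages. With 6 or more the medians were 5414 and 10704. The part of the definitions in this ratio was not tested. The share of mitochondrial UMIs was lower in macrophages in 11 of 11 samples, with 0.520%, 0.890% and 1.74% against 1.53%, 2.56% and 3.34% in microglia. Pools shared 32, 50 and 53 barcodes pairwise.

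The levels of the defining genes separated the classes as their use required. P2ry12 stood at 790.2, 1117 and 1428 CPM, that is UMIs per 1000000 UMIs of the class, in microglia and at 8.87, 11.02 and 21.3 in macrophages, and Ms4a7 at 0, 4.73 and 8.81 against 522, 878 and 1141. Ly6c2, a monocyte gene that the macrophage definition did not exclude, ran from 473 to 5438 CPM in macrophages. At the edge of the definitions, cells with exactly 2 UMIs of the microglial genes, just outside, held 400.1 CPM of Cx3cr1, those with 3 UMIs 693, and those with 6 or more 2518. Macrophage candidates with 2 UMIs of Ms4a7 and Gpnmb held 565 CPM of Fabp5, those with 3 UMIs 888 and those with 6 or more 2715.

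Marker genes outside the definitions matched both labels. The summed level of 7 other microglia genes (Sall1, Sparc, P2ry13, Olfml3, Cx3cr1, Fcrls and Slc2a5) was 5816, 7172 and 9101 CPM in microglia and 154, 263 and 408 CPM in macrophages. It was 106 CPM in 643 lymphoid cells of the same libraries, a class without microglial identity that was picked by Nkg7 after the data had been seen. It serves only as a rough level of free RNA, since these cells can express listed genes themselves. Itga4 stood at 262 CPM in them against a mean of 74.2 in macrophages. Cx3cr1 gave 47.0 of the 106 CPM, and its source was not tested. The 8 genes of infiltrating macrophages (Lyz2, Tgfbi, Itga4, Arg1, Mrc1, Ifitm3, Clec4n and Fn1) summed to 1017, 1436 and 2205 CPM in microglia and 14749, 17318 and 23305 CPM in macrophages. In the lymphoid cells this sum was 1254 CPM. Most of the macrophage sum was Lyz2 and Ifitm3, with means of 11204 and 4134 CPM, though each of the 8 genes was higher in macrophages. Monocyte markers also ran higher in macrophages, at 207, 475 and 1501 CPM against 2.89, 9.71 and 21.8, as did those of border-associated macrophages, at 100.5, 164 and 421 CPM against 2.202, 5.80 and 9.12. The latter sum was nearly all F13a1 and Pf4, with means of 90.3 and 81.2 CPM in macrophages. Of the more specific markers of border-associated cells, Lyve1 (1.31 CPM), Cd163 (0.952), Cbr2 (1.83) and Cd209f (2.52) were close to 0 in macrophages, and Folr2 stood at 1.63 CPM against 2.33 in microglia. The part of monocytes and border-associated cells in the differences below was not tested.

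Markers of other cells were low. The 7 NK and T cell markers summed to 6.20, 63.8 and 274 CPM in microglia and 1.42, 4.39 and 7.34 in macrophages, where Ncr1 and Cd3e were at 0; only the macrophage definition excludes cells with Nkg7. Dendritic cell markers stood at 118, 153 and 349 CPM in microglia, nearly all of it Fscn1, and at 2.51, 4.31 and 6.65 in macrophages. B cell markers, nearly all Ighm, were at 173, 197 and 263 CPM against 4.44, 11.3 and 17.6. Neutrophil markers were at 4.12, 6.24 and 115 CPM in microglia and 24.0, 45.9 and 71.1 in macrophages, with Ly6g at 0 in both. Markers of glia, neurons and vessels were at 17.3, 40.2 and 63.6 CPM in microglia and 15.5, 22.3 and 749 in macrophages, the highest value being that of 1 sample.

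The classes differed in most of the transcriptome. Of 9412 genes tested, 6929 (73.6%) passed an adjusted p of 0.05 in edgeR's quasi-likelihood test with the hashed sample as a block. Of all genes tested, 3404 (36.2%) were higher and 3525 (37.5%) lower in macrophages, around a median log2 fold change of -0.02. With a change of at least 2-fold as well, a limit chosen after the first counts were seen, 1174 genes (12.5%) were higher and 1385 (14.7%) lower, and for 2309 genes (24.5%) the CPM of the classes did not overlap over samples. Scaling by library size alone moved the median to -0.35 and the calls to 2208 higher and 5128 lower, 30.1% against 49.1% of calls being higher. Small differences therefore take their direction from the scaling. In 2 of the 11 samples, hashtag 3 of pool 2 and hashtag 4 of pool 3, microglia held little MHC class II RNA; without these samples, an alternative chosen after seeing the data, 6800 of 9446 genes passed, 3122 higher and 3678 lower. All log2 fold changes below are macrophages over microglia with TMM scaling, and values in parentheses after a gene are such log2 fold changes; all of them passed the test unless stated. Counts of list members called higher or lower stand against the 36.2% and 37.5% of all genes tested.

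**Figure D1:**
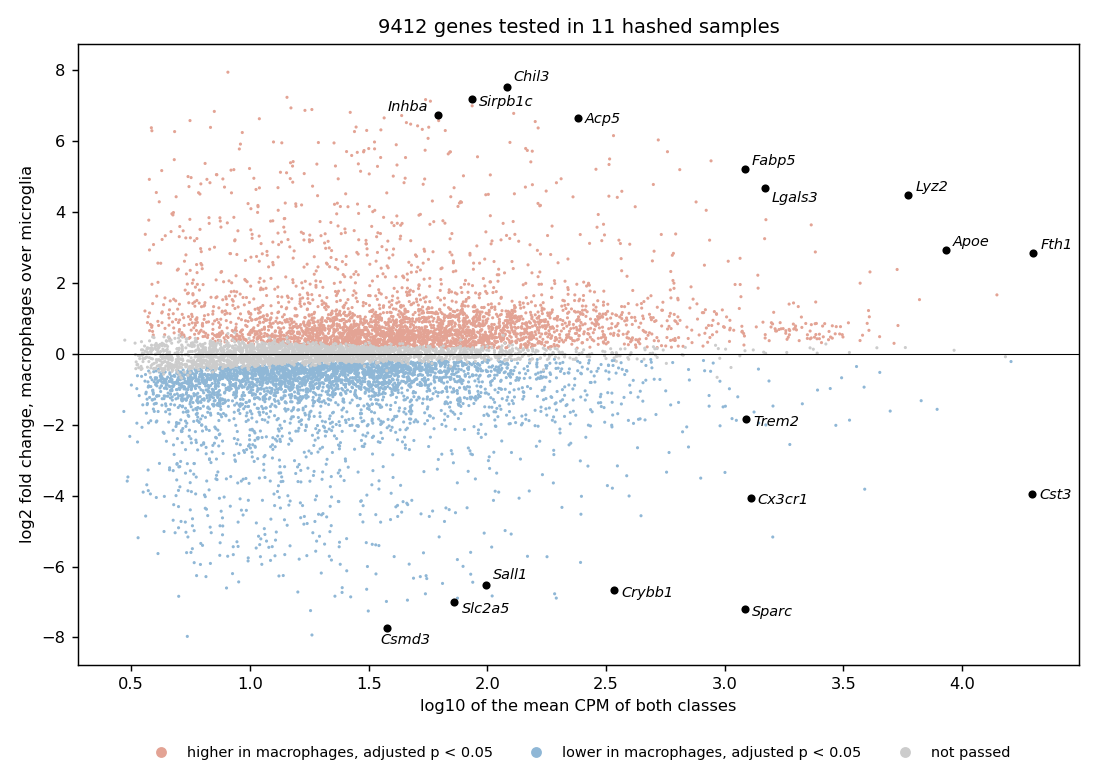
Each point is 1 of 9412 genes, with the log10 of its mean CPM in both classes on the horizontal axis and its log2 fold change of macrophages over microglia on the vertical axis; colour marks genes past an adjusted p of 0.05. Cst3, Cx3cr1 and Sparc lie below 0 and Fth1, Apoe, Lyz2 and Fabp5 above it.

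CPM compare shares of a cell's RNA, and macrophages held more UMIs. Counted as UMIs per cell, 2859 of the 3404 higher genes had more in macrophages in all 11 samples, while 1178 of the 3525 lower genes had fewer in all 11. Since median UMIs were higher in macrophages in every sample, genes higher in CPM were mostly bound to have more per cell. The 2 counts therefore follow largely from the UMIs per cell, and the shares over all genes tested were not taken. For 439 of the lower genes (12.5%) the mean number of UMIs per cell was above that of microglia. Within pools, 4691 of 4910 called genes that could be tested in each of the 3 pools (95.5%) kept their direction in all 3, and 1655 of 1657 of those with at least a 2-fold change did so. These genes were called on the same 11 samples, so this agreement is in part built in and is no replication. The share among all genes tested was not taken.

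The genes with the largest differences, among those with at least 50 CPM in the higher class and the same direction in every sample, included several genes known from microglia on the lower side. Csmd3, which encodes a large membrane protein with complement-like domains, had 56.2, 76.2 and 92.2 CPM in microglia and 0, 0.138 and 0.549 CPM in macrophages (log2 fold change -7.74 ± 0.17 SE, adjusted p = 1.4e-17). Its 9 UMIs in all macrophages make the fitted fold change depend on the small count added to each library, as it does for the other genes of this size. Sparc, a secreted matrix-binding glycoprotein, had 1735, 2598 and 2944 CPM in microglia and 7.72, 12.9 and 28.997 CPM in macrophages (log2 fold change -7.202 ± 0.15 SE, adjusted p = 5.6e-18). No macrophage sample came near the lowest microglia sample for either gene, both of which were picked for large differences. Slc2a5, the fructose transporter GLUT5, had 107, 141 and 199 CPM in microglia and 0, 0.707 and 1.59 CPM in macrophages (log2 fold change -6.99 ± 0.15 SE, adjusted p = 8.7e-18).

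The others of the 15 lower genes were Tmem100 (-7.25), Rtn4rl1 (-6.98), Sall3 (-6.95), Slc1a3 (-6.89), Serpine2 (-6.89), Thrsp (-6.85), Adgrg1 (-6.83), Cd34 (-6.77), Plxdc2 (-6.77), Crybb1 (-6.66), Fam167b (-6.64) and Sall1 (-6.51). Slc1a3 encodes the glutamate transporter GLAST, Serpine2 a serine protease inhibitor, Adgrg1 the adhesion receptor GPR56 and Cd34 a sialomucin of stem and endothelial cells. Sall1 and Sall3 are zinc finger transcription factors. Crybb1, a beta-crystallin gene that microglia are known to express, had 492, 674 and 864 CPM in microglia and 3.59, 5.51 and 8.87 CPM in macrophages. The 15 genes did not overlap between classes in any sample.

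The 15 genes on the higher side had various roles. Chil3 (Ym1), a chitinase-like secreted protein of monocytes and alternatively activated macrophages, had 0, 0.883 and 2.25 CPM in microglia and 23.2, 134 and 714 CPM in macrophages (log2 fold change 7.54 ± 0.37 SE, adjusted p = 8.2e-13). Slpi, a secreted inhibitor of leukocyte proteases, had 0, 0.883 and 3.85 CPM in microglia and 26.9, 81.8 and 285 CPM in macrophages (log2 fold change 7.13 ± 0.25 SE, adjusted p = 6.3e-15). Acp5, the tartrate-resistant acid phosphatase of osteoclasts and some macrophages, had 2.36, 4.64 and 14.6 CPM in microglia and 251, 409.99 and 971 CPM in macrophages (log2 fold change 6.66 ± 0.21 SE, adjusted p = 2.1e-15). Inhba, the subunit of activin A, a ligand of the TGF-beta family, had 0, 0.689 and 3.65 CPM in microglia and 54.3, 113 and 207 CPM in macrophages (log2 fold change 6.75 ± 0.23 SE, adjusted p = 3.5e-15). All macrophage samples lay above all microglia samples in these 4 genes, which follows largely from their choice for large differences.

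The others were the signal-regulatory protein genes Sirpb1c (7.19) and Sirpb1b (6.82), Mgst1 (7.002), a glutathione transferase, Plbd1 (6.79), a phospholipase-like gene, Cd93 (6.73), Gpr141 (6.66), the lectin receptors Clec12a (6.59) and Clec4d (6.44), the coagulation factors F10 (6.56) and F13a1 (6.53), and the mitochondrial arginase Arg2 (6.404). Chil3 and F10 also stand among the monocyte markers above and F13a1 among those of border-associated macrophages. Sirpb1b and Sirpb1c are near-identical copies, and reads could be split between them, so their separate values are uncertain. The lymphoid cells held 4.19 CPM of Chil3 and 38.6 of Acp5, more than any microglia sample, so the microglia values of these genes do not exceed this rough level of free RNA.

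**Figure D2:**
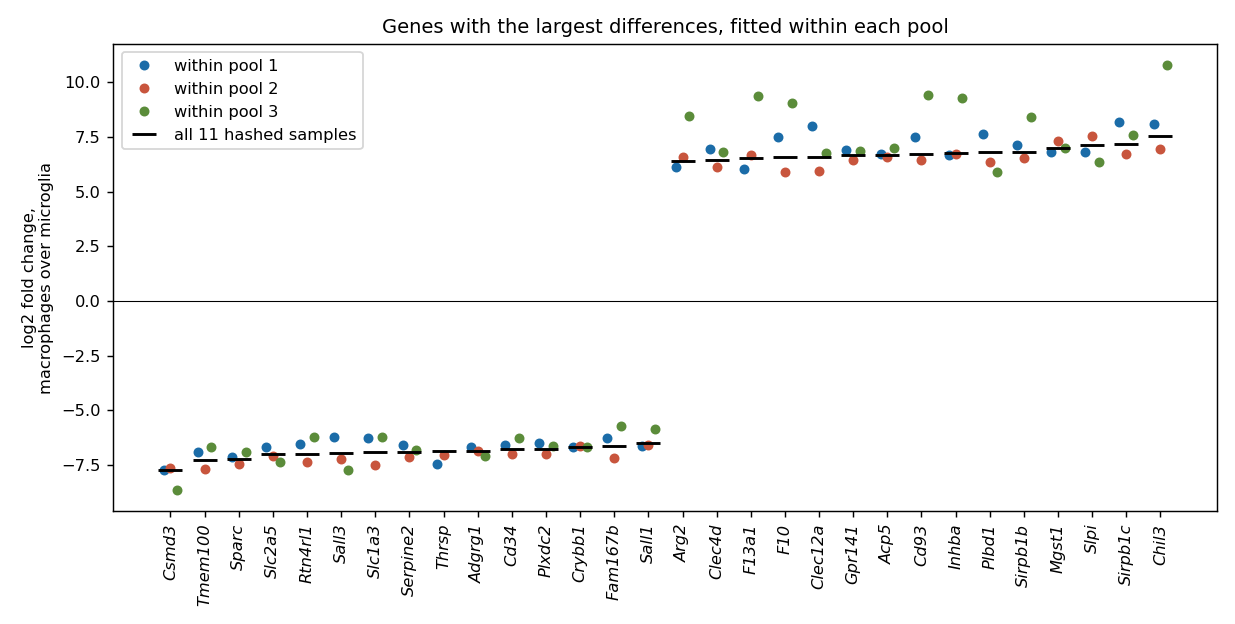
Log2 fold changes of macrophages over microglia for the 15 genes with the largest difference in each direction, fitted over 11 hashed samples (bars) and within each pool (points; no point where a gene could not be tested in a pool). All points lie on the same side of 0 as their bar, and pool 3, with 3 samples, gives the most distant values, as for Chil3.

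Genes of homeostatic microglia were lower as a group. Of 26 such genes, 24 were lower, 1 higher and 1 did not pass, with a median log2 fold change of -3.88 against -0.02 over all genes, and the same 24 did not overlap between classes. Of all genes tested, 37.5% were lower and 24.5% did not overlap. Cx3cr1, the receptor for the neuronal chemokine fractalkine, had 1974, 2311 and 3306 CPM in microglia and 58.2, 131 and 229 CPM in macrophages (log2 fold change -4.07 ± 0.19 SE, adjusted p = 3.3e-13). Cst3, which encodes the cysteine protease inhibitor cystatin C, had 23762, 40998 and 51225 CPM in microglia and 1654, 1847 and 2212 CPM in macrophages (log2 fold change -3.95 ± 0.10 SE, adjusted p = 1.3e-16). Csf1r, the receptor on which microglia depend for survival, was also lower but far less so, with 1461, 1749.7 and 2257 CPM in microglia and 303, 393 and 478 CPM in macrophages (log2 fold change -1.87 ± 0.08 SE, adjusted p = 6.3e-14).

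The smaller differences of this list included Tgfbr1 (-1.69), a TGF-beta receptor chain, Gpr84 (-1.27), a receptor for medium-chain fatty acids, and P2ry13 (-2.97), an ADP receptor related to P2ry12. Between them and the extremes lay Fcrls (-4.57), Golm1 (-4.07), Selplg (-3.503), Bin1 (-3.44) and Olfml3 (-3.34). Il7r, a cytokine receptor chain, went against the list (1.16). Macrophages were not devoid of these transcripts. The lymphoid cells, whose own expression of these genes was not tested, held 47.0 CPM of Cx3cr1, below the macrophage median. They held 2.93 of Sall1, above the macrophage mean of 1.97.

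**Figure D3:**
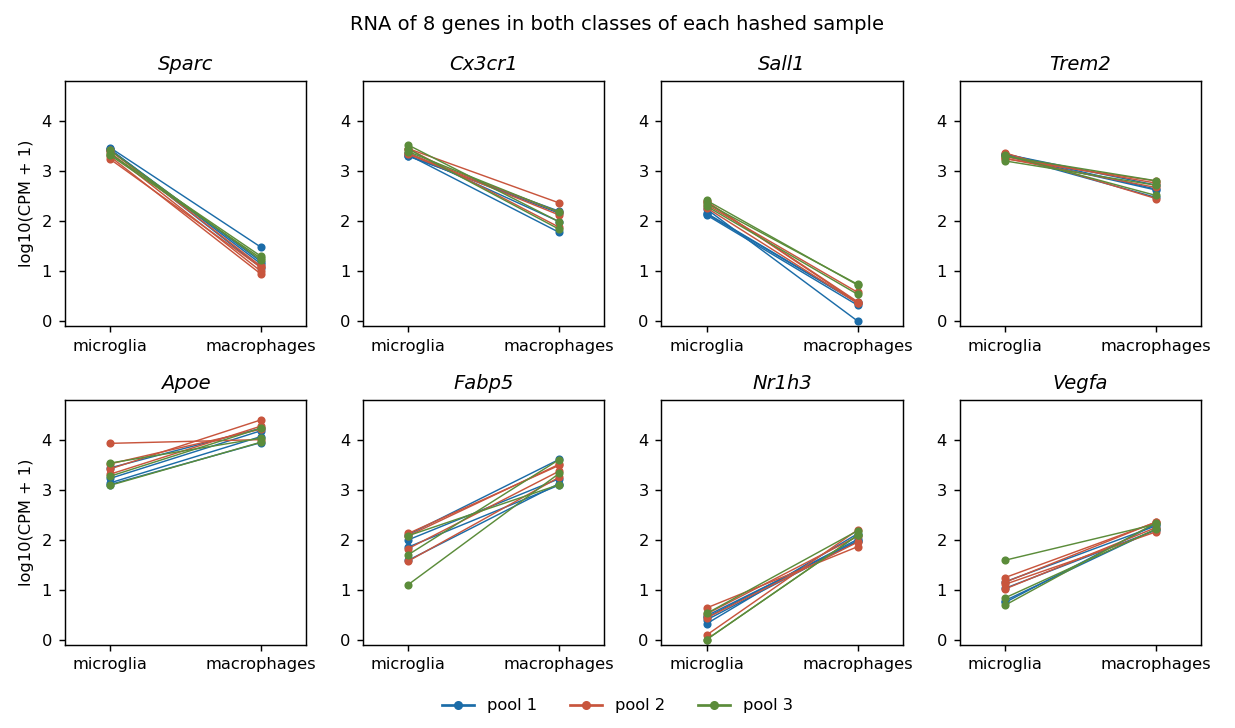
Log10(CPM + 1) of 8 genes in the microglia and the macrophages of each of 11 hashed samples, with lines joining the 2 classes of a sample and colour for the pool. Sparc, Cx3cr1, Sall1 and Trem2 fall from left to right and Apoe, Fabp5, Nr1h3 and Vegfa rise; the Apoe line that is nearly flat is hashtag 3 of pool 2, whose microglia held 8384 CPM.

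Transcription factors of microglial identity were mostly lower in macrophages, by widely varying amounts. Of 12 tested, 9 were lower and 2 higher, with a median of -1.63. Sall1, a repressor needed for the microglial state, had 130.4, 197 and 257 CPM in microglia and 0, 1.37 and 4.44 CPM in macrophages (log2 fold change -6.51 ± 0.14 SE, adjusted p = 1.0e-17). Mef2c, a MADS-box factor linked to enhancers of microglia, had 544, 782 and 910.4 CPM in microglia and 22.6, 35.5 and 54.02 CPM in macrophages (log2 fold change -4.01 ± 0.13 SE, adjusted p = 3.0e-15). Ets1 (-4.299), Bhlhe41 (-2.83), Smad3 (-1.95) and Mef2a (-1.300) followed, and Irf8, a factor of microglia and monocyte development, differed little (-0.71). Spi1, which encodes PU.1, the lineage factor of all myeloid cells, and Tgif1 were slightly higher in macrophages, at 0.599 and 0.68.

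Transcription factors of macrophages and monocytes went mostly the other way, with 13 of 21 higher, 4 lower and 4 not passing, and a median of 0.48. Nr1h3, which encodes the oxysterol receptor LXR-alpha, had 0, 1.701 and 3.28 CPM in microglia and 70.7, 115 and 154 CPM in macrophages (log2 fold change 6.399 ± 0.20 SE, adjusted p = 2.0e-15). Ahr, the aryl hydrocarbon receptor, had 0, 1.701 and 3.85 CPM in microglia and 14.2, 36.2 and 62.1 CPM in macrophages (log2 fold change 4.47 ± 0.17 SE, adjusted p = 2.4e-14). Runx3 (5.72), Tfec (5.09), Runx2 (3.597) and Bhlhe40 (3.25) were higher by more than 8-fold, and Cebpb (1.96), Hif1a (1.27), the oxygen-regulated factor, and Rbpj (1.18), the effector of Notch, by less. Klf2, -1.86, and Maf, -1.62, were lower in macrophages, together with Batf3 (-1.13) and Cebpa (-0.53). Under scaling by library size alone the list held 10 higher and 6 lower genes.

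TGF-beta signalling keeps microglia in their resting state. Of 14 genes of this pathway, 9 were lower and 3 higher in macrophages, with a median of -0.64. The lower ones were led by the BMP receptor chain Bmpr1a (-5.94), the feedback inhibitor Smad7 (-2.52) and the receptor chain Tgfbr2, which had 144, 205 and 300.1 CPM in microglia and 26.3, 42.1 and 59.8 CPM in macrophages (log2 fold change -1.97 ± 0.09 SE, adjusted p = 1.5e-13). Itgb5, a chain of an integrin that releases active TGF-beta, was at -1.84. The ligand gene Tgfb1 (0.34) and Nrros, which anchors latent TGF-beta on microglia (0.33), were slightly higher, but neither passed with library size alone and Tgfb1 did not without the 2 samples either, while Tgfbi, a matrix gene named for its induction by TGF-beta, had 26.7, 47.3 and 90.5 CPM in microglia and 1410.5, 1620.3 and 2204 CPM in macrophages (log2 fold change 5.45 ± 0.13 SE, adjusted p = 5.6e-17).

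Receptors for purines, by which microglia sense released ATP and its breakdown products, were divided. Of 11 tested, 7 were lower and 4 higher in macrophages. The ATP-gated channel gene P2rx1 (-4.57) and the adenosine receptor gene Adora3 (-4.21) were the lowest, P2rx7 was at -1.02 and Entpd1, which encodes the ATP-degrading enzyme CD39, at -0.93. The adenosine receptor gene Adora2b had 0, 0 and 2.89 CPM in microglia and 7.89, 19.1 and 57.7 CPM in macrophages (log2 fold change 6.64 ± 0.32 SE, adjusted p = 8.3e-13), from 6 UMIs in all microglia and 667 in all macrophages. P2ry14, a receptor for UDP-sugars, was at 2.87 and P2rx4 at 1.46. Genes of potassium channels and ion transport were lower in 11 of 14, with a median of -1.27. Kcnd1 (-5.14), Slc24a3 (-5.01) and Slc9a9 (-3.81) were the lowest, and the calcium-activated channel gene Kcnn4 was the main exception (3.95).

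Adhesion genes marked the classes in both directions, with 10 of 19 higher and 8 lower in macrophages. Itga4, which encodes the integrin chain CD49d used to tell infiltrating cells from microglia, had 3.001, 5.77 and 26.98 CPM in microglia and 51.5, 74.8 and 111 CPM in macrophages (log2 fold change 3.69 ± 0.18 SE, adjusted p = 1.0e-12). Its partner chain Itgb7 (4.23), the hyaluronan receptor Cd44 (3.398) and the LFA-1 chain Itgal (2.26) were also higher. Jam2, a junctional adhesion molecule (-6.84), Itgb3 (-5.68), Siglecf (-5.14) and Itga6 (-2.82) were lower. Itgam, which encodes CD11b itself, the protein of the sort, had 403, 492 and 597 CPM in microglia and 130.1, 193 and 255 CPM in macrophages (log2 fold change -1.104 ± 0.07 SE, adjusted p = 5.6e-11).

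The genes of disease-associated microglia, a lipid-handling state described in neurodegeneration, did not move as a unit: 9 of 19 were higher, 6 lower and 4 did not pass, against 36.2% higher and 37.5% lower among all genes tested. Apoe, the lipid carrier, had 1210.2, 2021 and 8384 CPM in microglia and 8676, 14965 and 24686 CPM in macrophages (log2 fold change 2.93 ± 0.23 SE, adjusted p = 9.3e-10), and its classes were separated only narrowly by the microglia of hashtag 3 of pool 2. Fabp5, a fatty acid binding protein, had 11.6, 69.7 and 131 CPM in microglia and 1228, 2100.1 and 4011 CPM in macrophages (log2 fold change 5.23 ± 0.24 SE, adjusted p = 3.1e-13). Lgals3, which encodes galectin-3, had 34.7, 159 and 263 CPM in microglia and 1947, 2770.3 and 4727 CPM in macrophages (log2 fold change 4.69 ± 0.24 SE, adjusted p = 2.3e-12). Axl (1.95) and Itgax (1.93) were also higher, and Spp1, which encodes osteopontin, had 11.6, 231 and 1163 CPM in microglia and 4.24, 229.5 and 2093 CPM in macrophages (log2 fold change 1.03 ± 0.38 SE, adjusted p = 0.021), with strongly overlapping classes. Without pool 1 the adjusted p of Spp1 was 0.058, and with library size alone 0.11.

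The receptor gene Trem2, which drives this state in microglia, had 1592, 2044 and 2308 CPM in microglia and 281, 468 and 638 CPM in macrophages (log2 fold change -1.83 ± 0.13 SE, adjusted p = 2.2e-10). Cst7, which encodes cystatin F, had 98.6, 174 and 291 CPM in microglia and 4.26, 17.02 and 35.4 CPM in macrophages (log2 fold change -3.01 ± 0.19 SE, adjusted p = 3.8e-11). Lpl (-2.54), the lipoprotein lipase, Csf1 (-2.61), Ctsd (-1.87) and Cd9 (-1.82) were lower as well. Tyrobp, the adaptor through which TREM2 signals, was slightly higher (0.43), though not past the threshold with library size alone, where the list held 5 higher and 6 lower genes.

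Among 24 lipid handling genes 16 were higher and 5 lower, with a median of 0.84. The scavenger receptor gene Msr1 had 1.71, 8.16 and 20.4 CPM in microglia and 76.4, 137 and 213 CPM in macrophages (log2 fold change 4.297 ± 0.18 SE, adjusted p = 7.2e-14). Pla2g7 (5.35), a secreted phospholipase, Pltp (4.96), a lipid transfer protein, Plin2 (2.68), a lipid droplet coat, and Soat1 (1.57), which esterifies cholesterol, were also higher. Cd36, the fatty acid translocase, had 13.1, 31.8 and 116 CPM in microglia and 1.098, 2.76 and 6.65 CPM in macrophages (log2 fold change -3.33 ± 0.28 SE, adjusted p = 2.8e-09) and was lower, as were Abca9 (-4.17) and, slightly, the cholesterol exporter Abca1 (-0.53).

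Lysosomal genes did not stand apart by their counts, with 12 of 27 higher and 10 lower against 36.2% and 37.5% of all genes tested, and a median of 0.26 that turned to -0.075 with library size alone. The collagen-degrading cathepsin gene Ctsk had 0, 0.429 and 2.89 CPM in microglia and 12.3, 45.3 and 125 CPM in macrophages (log2 fold change 6.28 ± 0.26 SE, adjusted p = 8.5e-14), and Gla, which encodes alpha-galactosidase, was at 2.32. The proton pump subunits Atp6v1a (1.11), Atp6v1b2 (1.103) and Atp6v0d1 (0.95) were higher. Ctsd, an aspartic protease, had 3276, 5704 and 6703 CPM in microglia and 683, 1353 and 2019.9 CPM in macrophages (log2 fold change -1.87 ± 0.10 SE, adjusted p = 2.3e-12), and Ctsl (-1.64), Man2b1 (-1.23) and Lgmn (-1.02) were lower too.

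The RNA of the ferritin chains was higher in macrophages and that of the iron exporter lower. Fth1, the ferritin heavy chain, had 4208, 6121 and 7580.3 CPM in microglia and 25102, 35229 and 37629 CPM in macrophages (log2 fold change 2.85 ± 0.09 SE, adjusted p = 2.6e-15), and the light chain Ftl1 was at 1.53. Slc40a1, which encodes ferroportin, the only known iron exporter, had 23.1, 55.02 and 95.1 CPM in microglia and 0, 1.24 and 7.82 CPM in macrophages (log2 fold change -4.16 ± 0.25 SE, adjusted p = 2.0e-11), and Trf, which encodes transferrin, was at -2.06. The heme-degrading genes Hmox1 (0.73), Blvra (1.59) and Blvrb (1.59) were higher. Over the whole list of 16 genes, 8 were higher and 5 lower, with a median of 0.33 that became -0.0078 with library size alone.

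Interferon response genes were higher in macrophages without exception among those tested: 24 of 24 passed, 21 with library size alone and 23, without Stat2, in the 9 samples other than hashtag 3 of pool 2 and hashtag 4 of pool 3, with a median of 1.38 against -0.02 over all genes. The classes did not overlap in 7 of the 24, against 24.5% of all genes tested. Rsad2, which encodes viperin, had 11.6, 32.6 and 64.2 CPM in microglia and 98.8, 243 and 774 CPM in macrophages (log2 fold change 3.34 ± 0.23 SE, adjusted p = 1.3e-10). Isg15, a ubiquitin-like modifier, had 147, 259 and 420.3 CPM in microglia and 436, 1123 and 2976 CPM in macrophages (log2 fold change 2.51 ± 0.19 SE, adjusted p = 6.5e-10). Ifitm3, a membrane protein that blocks virus entry, had 409, 688 and 1147 CPM in microglia and 1647, 3789.6 and 6128 CPM in macrophages (log2 fold change 2.88 ± 0.14 SE, adjusted p = 6.6e-13). Irf7, the factor that amplifies interferon production, was at 2.900, and the DNA sensor family member Ifi205 at 5.03. At the other end stood Stat2 (0.48) and Irf9 (0.46), subunits of the factor that binds the interferon response element, and neither passed with library size alone.

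Since these genes were higher together, promoters of 5 of them are shown, from 250 bases before to 50 after the start, after RefSeq on GRCm38.p6. They are the 5 with the largest difference among those with a promoter there, leaving out genes of 1 chromosome. Capitals mark the interferon response element, searched as its core letters GAAANNGAA on both strands and therefore also appearing as its reverse complement; overlapping matches run together.
Ifi205 (chr1:174031706-174032005, minus strand): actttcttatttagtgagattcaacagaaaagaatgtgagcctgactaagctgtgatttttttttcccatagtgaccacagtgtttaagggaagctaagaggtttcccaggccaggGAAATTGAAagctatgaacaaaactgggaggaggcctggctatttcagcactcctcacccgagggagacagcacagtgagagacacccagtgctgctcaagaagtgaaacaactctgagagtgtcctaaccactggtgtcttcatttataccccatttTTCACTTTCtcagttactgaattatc
Rsad2 (chr12:26456403-26456702, minus strand): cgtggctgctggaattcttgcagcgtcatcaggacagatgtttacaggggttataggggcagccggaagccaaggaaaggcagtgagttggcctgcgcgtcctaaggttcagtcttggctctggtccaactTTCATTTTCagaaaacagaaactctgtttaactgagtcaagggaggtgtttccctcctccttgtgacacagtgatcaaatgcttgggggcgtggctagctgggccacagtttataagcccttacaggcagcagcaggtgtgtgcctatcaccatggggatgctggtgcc
Irf7 (chr7:141266375-141266674, minus strand): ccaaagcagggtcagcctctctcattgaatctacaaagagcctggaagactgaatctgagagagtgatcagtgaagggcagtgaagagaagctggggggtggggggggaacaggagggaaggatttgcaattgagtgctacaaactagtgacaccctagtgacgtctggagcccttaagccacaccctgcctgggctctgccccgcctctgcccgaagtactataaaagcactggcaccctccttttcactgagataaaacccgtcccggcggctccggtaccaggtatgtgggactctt
Ifitm3 (chr7:141010695-141010994, minus strand): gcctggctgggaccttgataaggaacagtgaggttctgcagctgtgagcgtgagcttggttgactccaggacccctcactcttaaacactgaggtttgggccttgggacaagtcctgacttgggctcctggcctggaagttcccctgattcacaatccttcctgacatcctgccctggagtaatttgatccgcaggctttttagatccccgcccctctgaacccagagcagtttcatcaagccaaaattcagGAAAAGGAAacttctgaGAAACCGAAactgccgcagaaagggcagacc
Isg15 (chr4:156200769-156201068, minus strand): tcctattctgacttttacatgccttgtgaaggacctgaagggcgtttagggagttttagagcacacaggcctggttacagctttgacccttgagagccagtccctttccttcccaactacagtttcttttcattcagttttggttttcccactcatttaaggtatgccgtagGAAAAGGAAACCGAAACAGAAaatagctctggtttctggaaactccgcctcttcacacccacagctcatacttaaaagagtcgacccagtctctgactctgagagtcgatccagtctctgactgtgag
Isg15 and Ifitm3 carry their matches as close tandem copies, Ifi205 holds 1 on each strand at a distance, Rsad2 has a single match on the reverse strand, and Irf7 has none of these exact letters in this window.

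Of 24 interferon response genes tested, 20 had a promoter in the table and 14 of these held the element, against 7.72% of the 7489 promoters of all genes tested. Among genes at least 2-fold higher in macrophages, 13.3% of 942 promoters held it, and among those at least 2-fold lower 6.12% of 1062. The AP-1 motif TGANTCA stood in 8.81% of promoters of higher genes, 4.05% of lower genes and 4.78% of all. The MEF2 motif, searched by its consensus, stood in 1.17%, 2.35% and 1.46%, and the PU.1 letters GAGGAAG in 16.2%, 15.3% and 13.9%, in the same order. The E-box CACGTG was found in 10.1%, 8.57% and 10.96%, and the C/EBP letters TTGCNNAAT in 2.12%, 1.51% and 1.58%. None of these 6 motifs contains another. A match is a string of letters and says nothing of binding, and none of the differences between these shares was tested.

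Antigen presentation genes were mostly higher in macrophages. Of 11 MHC class II genes, 8 were higher and 2 lower, with a median of 1.46. H2-Ab1, a chain of the class II molecule I-A, had 131, 3116 and 4403 CPM in microglia and 3717, 9013 and 10618 CPM in macrophages (log2 fold change 2.38 ± 0.33 SE, adjusted p = 2.2e-06). Microglia stood at 131 CPM in hashtag 3 of pool 2 and 133 in hashtag 4 of pool 3, and at 1582 to 4403 in the other 9 samples, and the macrophages of the same 2 samples were the lowest of their class, so the classes overlapped across samples but not within them. Cd74, the invariant chain, had 359.9, 10957 and 16574 CPM in microglia and 8043, 18996 and 26891 CPM in macrophages (log2 fold change 1.67 ± 0.35 SE, adjusted p = 3.1e-04), again with the 2 lowest microglia values (359.9 and 486) in these samples, against 6196 or more in the others. Without them the log2 fold changes were 1.84 for H2-Ab1 and 1.09 for Cd74, the median of the list was 1.09, and 7 genes were higher and 2 lower. The class II regulator Ciita was at 1.66. H2-Oa (-3.23) and H2-Ob (-3.46), whose product restrains peptide loading, were lower. Of 19 MHC class I genes, 11 were higher and 1 lower, or 7 and 4 with library size alone, with a median of 0.49. The immunoproteasome subunit Psmb10 (1.403) and H2-T22 (1.38) led them, and H2-K1 was at 0.53, a call lost with library size alone.

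Chemokine genes divided between the classes. Of 15, 9 were higher and 3 lower in macrophages, with a median of 1.32. Pf4, which encodes CXCL4, had 0, 1.09 and 4.07 CPM in microglia and 28.3, 62.9 and 226 CPM in macrophages (log2 fold change 5.904 ± 0.30 SE, adjusted p = 1.2e-12). The neutrophil attractant gene Cxcl2 (4.29), Ccl5 (3.25), Ccl8 (4.44), Ccl24 (3.18), Cxcl9 (2.84) and Cxcl16 (2.63) were also higher. Ccl3, a chemokine that attracts monocytes and T cells, had 1777, 2294 and 3419.9 CPM in microglia and 248, 449.8 and 869 CPM in macrophages (log2 fold change -2.003 ± 0.13 SE, adjusted p = 3.4e-11), and Ccl4 (-2.01) and Ccl12 (-1.47) were lower with it. Ccl2, the ligand of CCR2, did not pass, with 475, 972 and 2243 CPM in microglia and 209, 432 and 2007 CPM in macrophages (log2 fold change -0.66 ± 0.30 SE, adjusted p = 0.052), but did with library size alone (-0.98) and without the 2 samples whose microglia held little class II RNA (-1.13).

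The inflammatory cytokines interleukin-1 beta and TNF went in opposite directions. Il1b had 289.9, 389.8 and 583 CPM in microglia and 2763, 3539 and 7688 CPM in macrophages (log2 fold change 3.64 ± 0.14 SE, adjusted p = 3.4e-14). Tnf had 347, 462 and 929 CPM in microglia and 15.5, 36.7 and 67.7 CPM in macrophages (log2 fold change -3.16 ± 0.18 SE, adjusted p = 7.5e-12). The antagonists of interleukin-1, namely Il1rn, a receptor blocker (4.15), and the decoy receptor Il1r2 (3.82), were higher with Il1b, while Il1a was lower (-2.03). Csf1, a ligand of CSF1R, was lower (-2.61), as was Il16 (-2.22), and Osm, which encodes oncostatin M, was higher (1.97). Over 16 cytokines and antagonists, 7 were higher and 7 lower, not far from the shares of all genes tested.

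Growth factors and matrix-modifying genes had the highest median of tested members among the 26 lists other than cell type markers, 3.34. Of 19 tested, 13 were higher and 5 lower. A further 10 of the 29 members were not tested, so the median and its rank leave them out. Vegfa, the main driver of vessel growth, had 3.85, 9.54 and 37.5 CPM in microglia and 141, 186 and 222 CPM in macrophages (log2 fold change 4.49 ± 0.18 SE, adjusted p = 5.9e-14). Thbs1, which encodes thrombospondin-1, had 6.24, 14.97 and 25.2 CPM in microglia and 139, 344 and 880.4 CPM in macrophages (log2 fold change 4.83 ± 0.15 SE, adjusted p = 2.0e-15). The matrix protease genes Mmp12 (4.17), Mmp14 (3.34) and Mmp19 (3.799), their inhibitor Timp1 (3.68), fibronectin Fn1 (3.11), the urokinase receptor Plaur (3.37) and Emilin2 (5.54) were higher. The TAM receptor ligands Pros1 (-4.34) and Gas6, which had 71.2, 79.3 and 138 CPM in microglia and 1.79, 4.26 and 7.803 CPM in macrophages (log2 fold change -4.13 ± 0.13 SE, adjusted p = 2.4e-15), were lower, as were Pdgfb (-3.31), a growth factor for pericytes, and Timp2 (-1.83).

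Of 21 receptors for such signals 14 were higher and 6 lower. Cxcr4, the CXCL12 receptor, had 2.14, 5.77 and 13.9 CPM in microglia and 84.9, 184 and 388 CPM in macrophages (log2 fold change 5.05 ± 0.14 SE, adjusted p = 1.9e-16). Ccr1 was at 4.78, and Flt1, a receptor for VEGF, at 4.22. Both chains of the GM-CSF receptor were higher, Csf2ra at 1.15 and Csf2rb at 1.598. The VEGF and semaphorin co-receptor Nrp1 (-1.69), Il6ra (-1.54), Ifngr1 (-1.41), Csf3r (-1.098) and Il10ra (-1.01) were lower.

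Complement genes differed in both directions, 7 of 14 higher and 7 lower in macrophages, against 36.2% and 37.5% of all genes tested. The genes of the C1q subunits were lower in macrophages, C1qa with 10064, 11226 and 15428 CPM in microglia and 1741, 3486 and 4827 CPM in macrophages (log2 fold change -1.56 ± 0.14 SE, adjusted p = 4.1e-09), C1qb at -1.32 and C1qc at -1.61. C4b (-3.87) and C2 (-1.397) were lower too. The central component C3 had 8.66, 15.6 and 46.995 CPM in microglia and 174, 307 and 506 CPM in macrophages (log2 fold change 4.25 ± 0.18 SE, adjusted p = 8.5e-14). The alternative pathway activators Cfb, factor B (3.94), and Cfp, properdin (5.54), were higher, as were the receptors C3ar1 (0.87) and C5ar1 (0.56), the latter without passing under library size alone. Cd93, once described as a receptor of C1q and given above, was the highest of the list. The median was -0.30 and turned to 0.38 without pool 2.

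Of 30 receptors of phagocytosis and pattern recognition 22 were higher and 5 lower, with a median of 1.88. The lectin receptor genes Clec12a (6.59), Clec4d (6.44), Clec4n (6.38) and Clec4e (6.08) form the top of the list, followed by Clec10a (5.48), Trem1 (5.36), Trem3 (5.201) and Clec4a1 (4.83). Mrc1, the mannose receptor CD206, had 0, 3.97 and 14.4 CPM in microglia and 9.78, 29.8 and 87.5 CPM in macrophages (log2 fold change 2.74 ± 0.23 SE, adjusted p = 2.4e-09), with overlapping classes. Cd14 (1.81), Tlr2 (1.501), Fcgr2b (1.58) and Fcgr4 (1.204) were higher by less. Mertk, a TAM receptor that takes up dying cells, had 199, 319.9 and 409 CPM in microglia and 36.8, 74.03 and 152 CPM in macrophages (log2 fold change -1.78 ± 0.10 SE, adjusted p = 9.4e-12), whereas its relative Axl was higher. The lipopolysaccharide receptor Tlr4 (-0.34) was slightly lower.

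Genes of checkpoint ligands and costimulators were divided, with 6 of 16 higher and 8 lower, close to the shares of all genes tested (36.2% and 37.5%). Cd274, which encodes PD-L1, had 25.02, 40.1 and 116 CPM in microglia and 110.2, 151 and 276 CPM in macrophages (log2 fold change 2.24 ± 0.14 SE, adjusted p = 2.4e-11). Pdcd1lg2, which encodes PD-L2, was at 3.71, Cd40 at 3.92 and Cd80 at 2.05. Lag3, an inhibitory receptor of T cells, had 358, 471 and 667 CPM in microglia and 1.82, 5.38 and 17.7 CPM in macrophages (log2 fold change -5.88 ± 0.17 SE, adjusted p = 6.8e-16), with 123 CPM in the lymphoid cells. Vsir, which encodes VISTA (-2.01), Nectin2 (-2.58), Icosl (-1.82), Sirpa, the receptor for CD47 (-1.09), and Havcr2, which encodes TIM-3 (-0.79), were lower.

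Several genes of arginine metabolism differed widely. Arg1, the cytosolic arginase, had 1.47, 3.85 and 407 CPM in microglia and 215, 647 and 1339.5 CPM in macrophages (log2 fold change 6.16 ± 0.53 SE, adjusted p = 4.0e-09), with a wide range in both classes. The highest microglia value, 407, came from hashtag 5 of pool 1, and the other 10 samples stood at 32.5 or below, under every macrophage sample. Nos2, the inducible nitric oxide synthase, had 0, 0 and 1.16 CPM in microglia and 4.44, 18.7 and 84.3 CPM in macrophages (log2 fold change 6.94 ± 0.32 SE, adjusted p = 4.0e-13), from 6 UMIs in all microglia. The arginine transporter gene Slc7a2 (5.98) and Ass1, which rebuilds arginine from citrulline (4.94), were higher as well. Among genes of polyamine synthesis the differences stayed below 2-fold. Of the 13 genes, 8 were higher and 2 lower, or 6 and 5 with library size alone.

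Macrophages held more RNA of 20 of the 24 genes of glycolysis and hypoxia and less of 4, with a median of 1.68 and the same counts with library size alone. Tpi1 had 122, 150.3 and 214 CPM in microglia and 305, 582 and 1195 CPM in macrophages (log2 fold change 2.19 ± 0.15 SE, adjusted p = 1.2e-10). Ldha, which makes lactate, was at 1.64, the lactate exporter Slc16a3 at 2.03, the glucose transporter Slc2a1 at 1.72 and Pfkp, a chain of phosphofructokinase, at 3.68. The hypoxia-induced genes Ndrg1 (3.75), Egln3 (2.89) and Ankrd37 (2.46) were among the highest. Pdk1 (-0.92), Hk2 (-0.62), Pfkfb3 (-0.65) and P4ha1 (-0.29) were lower, though hypoxia induces them too.

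Nuclear genes of oxidative phosphorylation were higher in 20 of 22, with a median of 0.84, by smaller amounts, among them Cox4i1 at 0.72, Cox5b at 1.39 and Cycs, cytochrome c, at 1.51. Ndufa4 alone was lower (-0.697). With library size alone 16 were higher and 3 lower. The share of mitochondrial UMIs, given above, was lower in macrophages.

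Immediate-early and heat shock genes, which tissue dissociation is known to induce, mostly stood lower, with 11 of 16 below and 2 above and a median of -0.62. Egr1 had 1185, 1822 and 2955 CPM in microglia and 76.7, 131 and 454 CPM in macrophages (log2 fold change -3.34 ± 0.22 SE, adjusted p = 6.4e-11), and Jun (-2.55), Hspa1a (-2.002) and Nfkbia (-1.49) were lower. Tnf, Ccl3 and Ccl4, which rapid activation also induces, were lower with them, and the part of dissociation in these differences was not tested. Ier3 was higher (2.22). Of 11 cell cycle genes 9 were lower and 0 higher, with a median of -1.29. Top2a, which is expressed in dividing cells, had 8.66, 43.5 and 95.3 CPM in microglia and 3.36, 6.101 and 7.09 CPM in macrophages (log2 fold change -2.57 ± 0.20 SE, adjusted p = 9.6e-10), and Birc5 was at -3.18, Cdk1 at -2.39 and Mcm5 at -1.29.

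**Figure D4:**
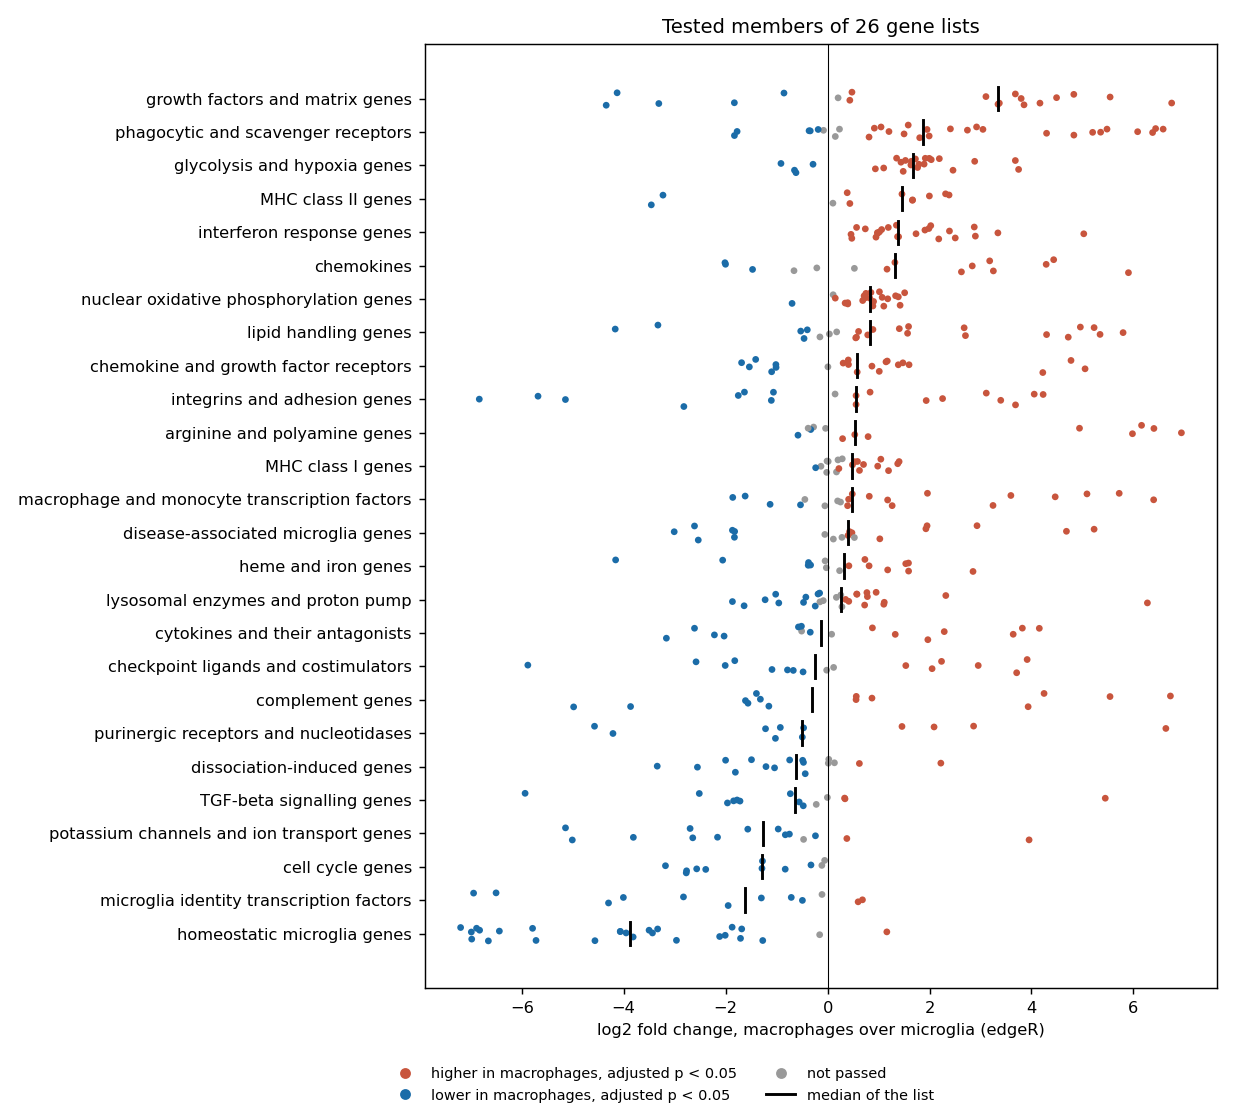
Log2 fold changes of macrophages over microglia of the tested members of 26 gene lists, 1 point a gene, coloured by the test, with the median of each list as a black bar. Lists are ordered by median, from homeostatic microglia genes (-3.88) to growth factors and matrix genes (3.34), and most lists hold points on both sides of 0.

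Antibody tags gave a readout that the definitions did not use, apart from TMEM119, Ly-6C and CCR2, whose genes were among the 12. Macrophages bound far more antibody in all: 1254, 1661 and 2741 tags per cell in microglia against 9125, 13916 and 24248 in macrophages, a ratio of 5.25, 7.04 and 15.3 within samples. Much of this total was Ly-6C, the tag of a defining gene. In hashtag 3 of pool 2, the sample with the highest ratio, Ly-6C gave 14332 tags per cell in macrophages and 531 in microglia. Tags were therefore compared by centred log ratios, which take the logarithm (base e) of each tag and subtract the mean logarithm over the 10 tags of that cell. TMEM119 had 42.1, 78.3 and 94.6 tags per cell in microglia and 13.8, 19.8 and 40.6 in macrophages, a centred log ratio difference of -2.87 ± 0.33 (SD, n = 11). Ly-6C had 185, 573 and 1440.1 tags per cell in microglia and 2326, 6046 and 15874 in macrophages. In pools 2 and 3, where it was read, CCR2 had 15.6, 30.8 and 70.8 tags per cell in microglia and 55.2, 117 and 206 in macrophages, with a centred log ratio difference of -0.01 ± 0.27 (SD, n = 7). The differences of these 3 follow from the definitions in part and are given without a test. The CCR2 values of the classes overlapped on this scale.

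Of the 8 remaining tags, 5 were relatively higher and 2 relatively lower in macrophages in 11 of 11 samples, each with an adjusted p of 0.0011 in the exact two-sided sign-flip permutation test. Its unadjusted p, 9.8e-04, is the smallest that 11 samples can give. The centring ties the tags to each other, and the low TMEM119 of macrophages, a tag of a defining gene, alone lifts the other 9 differences by 0.32 on average. Centred over the 8 tags of no defining gene, an alternative chosen after seeing the data, 5 tags passed: PD-L1 (0.65), CD45 (0.48) and CD49d (0.46) higher and CD11b (-1.02) and CD74 (-0.68) lower. MHC class II (0.20) and Gr-1 (0.090) then did not pass, with adjusted p of 0.17 and 0.19 in the same permutation test. PD-L1 had 34.2, 58.9 and 90.9 tags per cell in microglia and 297, 593 and 759.6 in macrophages, a centred log ratio difference of 0.89 ± 0.18 (SD, n = 11). CD45, the leukocyte phosphatase that is known to be low on microglia, had 81.8, 156 and 201 tags per cell in microglia and 843, 1463 and 1784 in macrophages, a difference of 0.71 ± 0.27 (SD, n = 11). CD49d had 43.1, 82.3 and 184 tags per cell in microglia and 423, 608 and 827 in macrophages, a difference of 0.69 ± 0.26 (SD, n = 11). MHC class II differed by 0.43 ± 0.36 (SD, n = 11), and microglia of the 2 samples with little class II RNA had the lowest centred log ratios of this tag, -0.72 and -0.51, against 0.38 to 1.44 in the other 9. Their differences from macrophages, 0.85 and 1.19, and that of hashtag 5 of pool 1, 0.85, were the 3 largest, the other 8 lying between 0.0799 and 0.407. The relative Gr-1 tag was higher by 0.32 ± 0.19 (SD, n = 11). Gr-1 antibodies are known to bind Ly-6G and also Ly-6C, so this tag is not independent of Ly6c2.

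CD11b had 166, 311 and 401 tags per cell in microglia and 293, 848 and 1142 in macrophages, a difference of -0.78 ± 0.202 (SD, n = 11): macrophages bound more of this antibody but a smaller part of their total. CD74 behaved alike, with 7.78, 10.6 and 13.7 tags per cell in microglia and 18.7, 43.4 and 73.04 in macrophages and a difference of -0.44 ± 0.21 (SD, n = 11). CD52 had 3.52, 6.73 and 8.65 tags per cell in microglia and 16.3, 36.3 and 82.2 in macrophages, a difference of 0.06 ± 0.27 (SD, n = 11) and an adjusted p of 0.49 in the exact permutation test. As log2 raw counts, CD11b and CD74 were higher in macrophages by 1.42 and 1.91, and as tags per 1000 only CD11b, CD74 and PD-L1 of the 8 passed.

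Protein and RNA can be set side by side for these targets. The RNA of PD-L1 (Cd274) and CD49d (Itga4) was higher in macrophages as were the relative tags, at 2.24 and 3.69. H2-Ab1 RNA was higher (2.38) where the call of its tag depended on the centring, and Ptprc, which encodes CD45, had a log2 fold change of 0.79. As tags per 1000, the CD49d and CD45 tags did not pass. Itgam was lower (-1.104), as was the relative CD11b tag, although macrophages bound more CD11b tags per cell. Cd74 RNA was higher (1.67) where its relative tag was lower, and Cd52 RNA was higher (1.34) where its tag did not differ past the threshold.

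**Figure D5:**
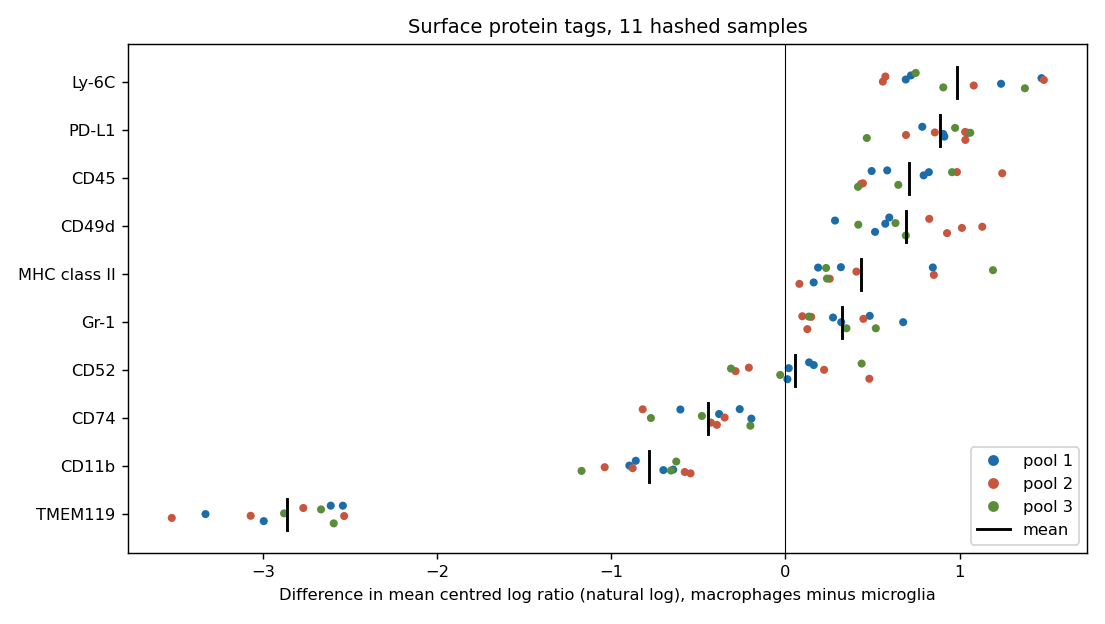
Difference of the mean centred log ratio (natural log) of 10 antibody tags, macrophages minus microglia, with 1 point per hashed sample coloured by pool and the mean as a black bar. All 11 points of TMEM119, CD11b and CD74 lie below 0, those of CD52 straddle it, and all points of the other tags lie above it.

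Few genes passed the test of the class-by-pool terms, which asks whether the class difference varied between pools. Its power with 11 pairs was not measured, so few calls do not show that the pools were alike. Pool 1 was counted with another version of Cell Ranger, so what sets it apart from the other pools cannot be told from the version. Only 1 of 9412 genes (0.0106%) passed in edgeR's quasi-likelihood test, Exosc2, an exosome subunit, named after its value was seen, with an adjusted p of 0.039 and log2 fold changes of -1.62 within pool 1 and 0.28 within pool 2. An unadjusted p under 0.05 was reached by 513 genes (5.45%), and DESeq2 called 12. The genes with the smallest p among those with at least 50 CPM, none of which passed after adjustment, were Atp6v0c, Kdm6b, Icam1, Dusp2, Syngr1 and Ier2. Ier2, an immediate-early gene, had log2 fold changes of -0.62, -0.99 and -1.81 in pools 1, 2 and 3, and Icam1, an adhesion ligand, of -1.25, -1.51 and -2.55. Kdm6b, a histone demethylase gene, stood at 0.10, -0.41 and -1.24, and Dusp2, a phosphatase of MAP kinases, at 0.63, -0.11 and -0.62. Syngr1 was at -1.45, -0.51 and -0.67. Atp6v0c, a proton pump subunit, was counted at 6.82 to 19.2 CPM in every class and sample of pool 1 and at 856 to 3034 in pools 2 and 3, so its values within pool 1 rest on another level of counting.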

How the data were processed

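The authors deposited, for each pool, a matrix of UMI counts of genes and antibody tags in every cell barcode, not normalized. Per the file headers, Cell Ranger 3.1.0 (pool 1) and 4.0.0 (pools 2 and 3) made them; bcl2fastq 2.20.0.422, the build mm10 and Seurat 3, beside Cell Ranger 3.0.1, are in the submitters' processing notes. The matrices hold barcodes that passed a cell filter of the authors, and 30406 genes listed in all pools were used. The mRNA libraries held 74848339, 107880924 and 71510276 UMIs. Of barcodes with enough UMIs, 79.2%, 87.5% and 16.1% of pools 1, 2 and 3 had a majority hashtag, so pool 3 gives few cells. This step removes doublets of different hashtags; no doublet caller was run, and runs without the 10% of cells with most UMIs stand in.

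For each class of a hashed sample RNA counts were added up (at least 20 cells each, 260755 to 8219330 UMIs) and tested with edgeR 4.0.16 in R 4.3.3 (TMM scaling, filterByExpr, quasi-likelihood F test, hashed sample as a block, Benjamini-Hochberg adjustment over all genes tested without the 12 defining genes, threshold 0.05). Adjusted p-values of genes are from this test unless named otherwise. The standard error (SE) of a log2 fold change is its size over the root of F. Both classes come from the same hashed sample, which is the pairing. The test was checked on simulated counts of 9412 genes, 50 of them changed at each of 1.5-fold, 2-fold, 4-fold and 0.5-fold. It recovered 70%, 100%, 100% and 90% of these, with 9 false calls. Far fewer genes changed there than the 73.6% called in the data, so the check does not cover scaling under so broad a change. Tags were tested by an exact two-sided sign-flip permutation test over samples, adjusted over the 10 tags read in all pools, though TMEM119 and Ly-6C, tags of defining genes, are given without a p. Interaction with pool was tested by both class-by-pool terms together; in DESeq2 1.42.0 this was a likelihood ratio test. Alternatives are in the closing section.

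The members, the definitions and the gene lists were chosen with earlier results of these data known. Genes were named by a rule: list members with the largest changes in each direction, against their list or not passing; the 15 largest changes each way with at least 50 CPM in the higher class and 1 direction in every sample, without Xist, mitochondrial and unnamed genes; and the 6 smallest p for the pool terms. Cd52 and Ptprc were added as genes of tags. Promoters come from RefSeq, matched by symbol for 7489 of 9412 genes. Some members of the lists are counted but not reported here by name, and a microglia marker among them was left out of the summed marker level.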

Additional observations from a re-analysis of the deposited data

Results flagged for a closer look

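Cells that met the macrophage definition also appeared under hashtags 1 and 2, which the comparison did not use and where microglia made up 91.8% to 97.6% of all cells. In pool 2 they were 5 of 696 cells under hashtag 1, 0.718% (exact 95% Clopper-Pearson interval 0.234% to 1.67%), and 8 of 1445 under hashtag 2, 0.554% (0.239% to 1.09%). The limit that a count of 0 allows is set at 3 cells, here 0.431% and 0.208%, so both shares lie above it because 5 and 8 exceed 3. Intervals and limits cover counting error only. These cells had median mitochondrial shares of 4.75% and 3.24%, above the 2.67% and 2.15% of microglia under the same hashtags. In all samples compared above, the share was lower in macrophages than in microglia. Whether these cells are macrophages of the same kind was not tested. In pool 1 the counts were 2 of 643 and 0 of 1937 cells, and in pool 3 they were 0 of 112 and 0 of 239, which allow shares of up to 2.68% and 1.26%.

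The class difference of Exosc2 differed between pools in edgeR's test of the class-by-pool terms, with an adjusted p of 0.039. Pool 1 was counted with Cell Ranger 3.1.0 and the others with 4.0.0, so pool and version cannot be told apart here. Exosc2 could not be tested within pool 3. Its log2 fold change of macrophages over microglia was -1.62 within pool 1 and 0.28 within pool 2, and its highest level in microglia was 53.4 CPM against a lowest of 2.32.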

How the results depend on the processing

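The count of 6929 genes was 5426 to 7149 when each pool in turn was left out (3 runs), 6447 with no replicate block, 6765 in DESeq2, 6261 with strict gates (at least 5 UMIs of the class genes and 0 of the opposing ones) and 8919 with no filter on low counts. Without hashtag 3 of pool 2 and hashtag 4 of pool 3, chosen after seeing the data, it was 6800. With cells thinned to 2000 UMIs before gating, 5437 genes could be tested and 3654 passed, 1753 higher and 1901 lower. Scaled by library size alone, 2208 passed as higher and 5128 as lower. The 1 gene of the pool terms became 101 with no filter on low counts and 12 in DESeq2. It became 0 with a hashtag share of at least 90%, 0 with strict gates, 0 with thinned cells, 0 without the 10% of cells with most UMIs and 0 with at least 50 cells, and 0 to 1 when a pool was left out; the cause was not tested. At an unadjusted p under 0.05 the main test gave 513 genes.

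Of the 8 tags of no defining gene, 7 passed in the main test, 5 when centred over these 8 (chosen after seeing the data, with CD52 at -0.18), 3 as tags per 1000 and 0 with counts summed per pool, where 3 pairs cannot give a p below 0.25. As log2 raw tag counts, CD11b was higher in macrophages by 1.42 and CD74 by 1.91. As tags per 1000, Gr-1 stood at -0.24, MHC class II at -0.061 and CD52 at -0.11 on the log2 scale. With no replicate block (class labels permuted over unpaired sums), MHC class II had an adjusted p of 0.13 in the permutation test, and no other tag's call changed.

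Dusp2 ranged from -0.34 (without pool 1) to 0.25 over runs leaving out a pool, and was -0.24 with library size alone and -0.13 with counts summed per pool. Exosc2 ranged from -1.60 to 0.099 (without pool 1). With library size alone the medians of lysosomal and of heme and iron genes became -0.075 and -0.0078. That of complement genes ranged from -0.34 to 0.38 (without pool 2) over runs leaving out a pool, and was 0.48 with thinned cells and 0.60 without the cells with most UMIs. Small sums limit pool 3, where a sample had as few as 35 microglia.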
